A study of Homo sapiens with 6 samples.

Results

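The genes described here are the nuclear genes of mitochondrial ribosomal proteins: every row of the expression table whose symbol is MRPL or MRPS followed by digits and an optional A, B or C. Of 59008 gene symbols, 78 met this rule, 49 with an MRPL and 29 with an MRPS symbol. Another 76 rows with pseudogene names and 6 antisense or divergent transcripts were left out. All 78 genes were above 0 in all 6 libraries and passed the filter used for all genes, a mean of at least 1 TPM (an abundance scaled to transcript length and to the library). They lie on 21 chromosomes.

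RNA was sequenced from Hey and SKOV3, established human ovarian cancer cell lines, as parental cells, polyploid giant cancer cells (PGCCs) and daughter cells, with 1 library per condition. Parental cells were untreated. PGCCs and daughter cells had received 500 nM paclitaxel, which freezes microtubules and so arrests dividing cells, for 16 h. PGCCs then recovered for 3 days and daughter cells for 30 days. The title of the SKOV3 PGCC library gives day 7, while its treatment label gives 3 days. The titles of both daughter libraries say clone 1.

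Mitochondria keep a ribosome of their own, built from a small subunit that reads the mRNA and a large subunit that joins amino acids. Its proteins are all encoded in the nucleus, made in the cytosol and imported, while its ribosomal RNAs are transcribed from the mitochondrial genome. It makes the respiratory chain and ATP synthase subunits that the mitochondrial genome encodes, so cells that respire depend on both genomes. Of the 78 genes, 51 encode large subunit proteins and 26 small subunit proteins. MRPS30 and MRPS18A are named for the small subunit but sit in the large subunit. MRPS36, also called KGD4, is now placed in the oxoglutarate dehydrogenase complex and was counted in neither.

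The columns summed to between 911825 and 920497 TPM, and between 19920 and 25370 genes were above 0. KRT8, KRT18 and PAX8, markers of epithelial and ovarian carcinoma cells, were abundant in all libraries (54.7 to 1052 TPM). EPCAM, KRT19 and CDH1 were between 0 and 3.60 TPM in Hey. In SKOV3 parental cells, PGCCs and daughter cells EPCAM was at 68.8, 43.6 and 8.15 TPM. KRT19 was at 292, 711 and 80.2 TPM and CDH1 at 1.47, 4.35 and 8.35 TPM in that order. ERBB2 was between 1127 and 1778 TPM in SKOV3 and between 8.20 and 14.1 TPM in Hey. CD3E was at 0, PTPRC, COL3A1, PECAM1 and VWF were at most 0.425 TPM, and DCN was at most 1.33 TPM. Of the ovarian carcinoma markers WT1 was low in all libraries (0.530 to 4.10 TPM), and MUC16 was at most 0.0322 TPM in Hey and 1.59 TPM in SKOV3. Of the other stromal and leukocyte markers, COL1A1 reached 16.3 TPM and PDGFRB 5.35 TPM in SKOV3 daughter cells, and CD68 was between 0.840 TPM in SKOV3 daughter cells and 69.3 TPM in Hey PGCCs. Their part in the results was not tested. The table gives TPM and not read counts per gene, and intervals for counting error are not given.

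Mitochondrial ribosomal protein genes took a small and similar share of each library. Summed over the 78 genes, Hey gave 0.527% of the TPM as parental cells, 0.522% as PGCCs and 0.624% as daughter cells. The SKOV3 sums were 0.654%, 0.653% and 0.508% in that order. The median level per gene was 50.1, 45.8 and 59.9 TPM in Hey and 62.3, 62.1 and 47.1 TPM in SKOV3. In both lines the PGCCs were thus close to the parental cells by these sums, and the daughter cells of the lines stood on opposite sides of them.

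Single genes spanned a wide range of levels. MRPL33, a small bacterial-type protein of the large subunit, was the most abundant, with a mean of 308 TPM over the 6 libraries. It was followed by MRPL51 (mean 227 TPM) and MRPL15 (mean 172 TPM), also of the large subunit. The lowest were MRPS11 (mean 4.01 TPM), MRPS34 (mean 7.17 TPM) and MRPL17 (mean 10.7 TPM). The order of the genes by level was much alike between libraries, with Spearman correlations across the 78 genes from 0.701 (Hey PGCCs with SKOV3 PGCCs) to 0.935 (SKOV3 parental with SKOV3 daughter cells). These describe genes, which are not independent replicates.

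Levels of these genes varied less between libraries than those of most genes. The standard deviation of log2(TPM + 1) over the 6 libraries had a median of 0.40 for the 78 genes, against 0.61 for all 14988 genes that passed the filter. Among the 2570 genes whose mean TPM lay between the quartiles of the set (34.8 and 97.9 TPM) the median was 0.51, and for 75 cytosolic ribosomal protein genes it was 0.59. The steadiest member was MRPS14 (0.13) and the most variable was MRPS6 (0.98). Between their lowest and highest library, 40 of the 78 genes differed at least 2-fold on this scale, against 81.1% of all genes.

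**Figure D1:**
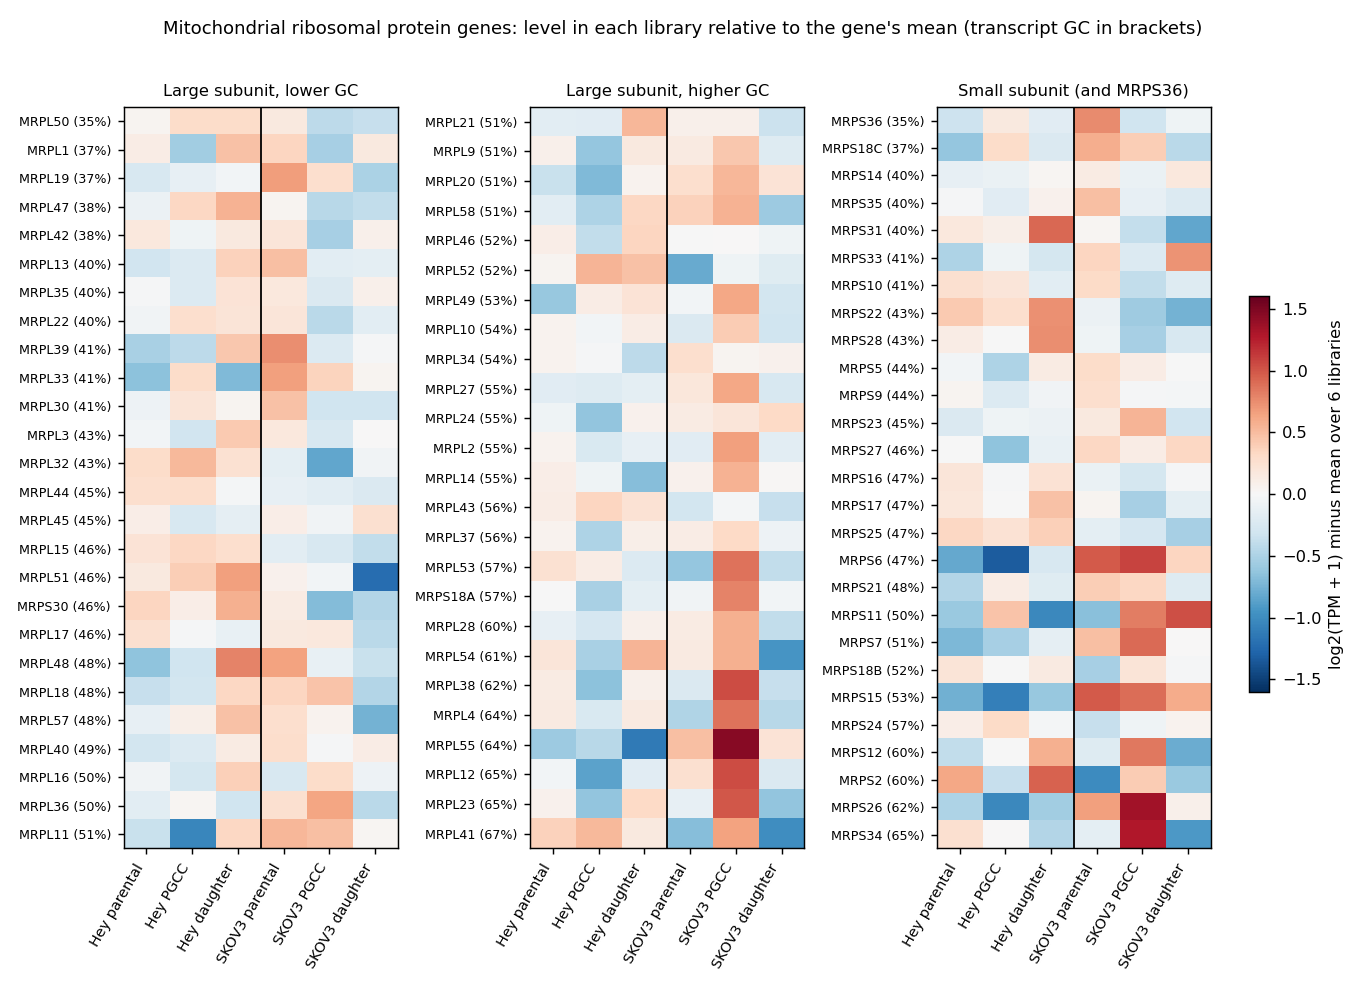
Level of each gene in each library, as log2(TPM + 1) minus the mean of that gene over the 6 libraries (colour scale), with genes of each block ordered by the GC content of the transcript, given in brackets. In the SKOV3 PGCC column the reddest genes lie near the bottom of the middle and right blocks, at high GC content. Among them are MRPL55 (63.7%), MRPS26 (61.9%) and MRPS34 (64.6%). MRPL55 and MRPS26 were higher in every SKOV3 library than in any Hey library, so their colour also holds the difference between the lines.

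In Hey PGCCs the mitochondrial ribosomal protein genes changed little compared with parental cells. A gene was called at a difference of log2(TPM + 1) of at least 1, a 2-fold change, and with 1 library per condition no test was made. The median change of the 78 genes was -0.11, against 0.00 for all 14988 genes. Only MRPS11 was called upregulated, 1 of 78 genes, where 7.67% of all genes were, and 0 were called downregulated, where 5.22% were. At a 1.5-fold threshold 5 genes were higher and 9 lower, against 17.1% and 14.4% of all genes. All 4 counts were below the share of all genes. The call of MRPS11 depended on the scaling, since its change was 0.80 after quantile normalization. Without the genes of the mitochondrial genome MRPL33 (1.10) and MRPS18C (1.07) were called as well.

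MRPS11, a bacterial-type protein of the small subunit on chr15:88467453-88480776 (GRCh38), was low in every library. Its level was 1.86 TPM in Hey parental cells and 4.91 TPM in Hey PGCCs, a change of 1.05. In SKOV3 it was 1.71 TPM in parental cells and 6.62 TPM in PGCCs, a change of 1.49. It was the only gene of the set called in the same direction in PGCCs of both lines, where 0.834% of all genes were called upregulated in both. In daughter cells it was 1.12 TPM in Hey and 7.81 TPM in SKOV3, so it was below the parental level in Hey and above it in SKOV3.

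The next largest increases in Hey PGCCs stayed under 2-fold. MRPL33 was at 184 TPM in parental cells and 358 TPM in PGCCs (0.95), and MRPS18C, a bacterial-type protein of the small subunit, was at 31.5 and 60.3 TPM (0.92). The largest decreases were those of MRPS2, MRPL12 and MRPL38, none of them called on the log2(TPM + 1) scale. MRPS2, a small subunit protein with a bacterial counterpart, was at 51.5 TPM in parental cells and 25.5 TPM in PGCCs (-0.99), a TPM ratio of 0.494, and it was called with a pseudocount of 0.1 (-1.01). MRPL12, a large subunit protein that forms part of the stalk where elongation factors bind, was at 76.6 and 43.2 TPM (-0.81). MRPL38, a mitochondria-specific protein of the large subunit, was at 34.9 and 19.9 TPM (-0.78).

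In SKOV3 PGCCs the median of the set was also close to 0, but single genes spread more widely. The median change was -0.04 for the 78 genes and 0.02 for all genes. The standard deviation of the change across the 78 genes was 0.66 in SKOV3 and 0.42 in Hey. Upregulation at 2-fold was called for 9 genes, against 9.94% of all genes, and downregulation for 1 gene, against 4.96%. At 1.5-fold 18 genes were higher and 12 lower, against 22.9% and 16.3% of all genes. Except for the single gene called downregulated, these shares were near those of all genes.

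The 9 upregulated genes came from both subunits. MRPL53, a mitochondria-specific protein of the large subunit, had the largest change, from 24.3 to 70.4 TPM (1.5). MRPS34, a mitochondria-specific protein of the small subunit, went from 5.49 to 16.6 TPM (1.44). MRPS2 went from 16.0 to 44.3 TPM (1.41), opposite in direction to its change in Hey. The others were MRPS11, MRPL4 (1.35), MRPL41 (1.34), MRPL38 (1.28), MRPL23 (1.12) and MRPS12 (1.05), the last a protein of the decoding region of the small subunit. MRPL4 and MRPL23 have bacterial counterparts, while MRPL41 and MRPL38 do not. MRPS36 was called downregulated, from 57 to 26.7 TPM (-1.07). MRPL39 (-0.96) and MRPL1 (-0.87) were the next lowest.

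Changes in PGCCs were compared between the lines by their signs. Of the 78 genes, 46 (59%) had changes of opposite sign, against 48.6% of all genes. In PGCCs of both lines 12 (15.4%) were higher and 20 (25.6%) were lower, against 25.2% and 22.3% of all genes. The Spearman correlation across the 78 genes between the lines was -0.248, and across all 14988 genes it was -0.020. With the GC and length trend described next removed, 35 genes (44.9%) had opposite signs, against 48.6% of all genes. Then 16 (20.5%) were above and 27 (34.6%) below 0 in both lines, against 26.1% and 25.3% of all genes. The correlation across the 78 genes was 0.0733. The 5 genes that differed most between the lines were MRPS2, MRPL38, MRPL23, MRPL4 and MRPS34, all of them called in SKOV3 and below 0 in Hey. MRPL1, on chr4:77862830-77952785, had the largest decrease that both lines shared as deposited, -0.68 in Hey and -0.87 in SKOV3. With the trend removed its changes were -0.76 and -0.19. MRPL49 (0.73 and 0.66) and MRPL52 (0.50 and 0.74), mitochondria-specific proteins of the large subunit, followed MRPS11 among the increases that both lines shared.

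**Figure D2:**
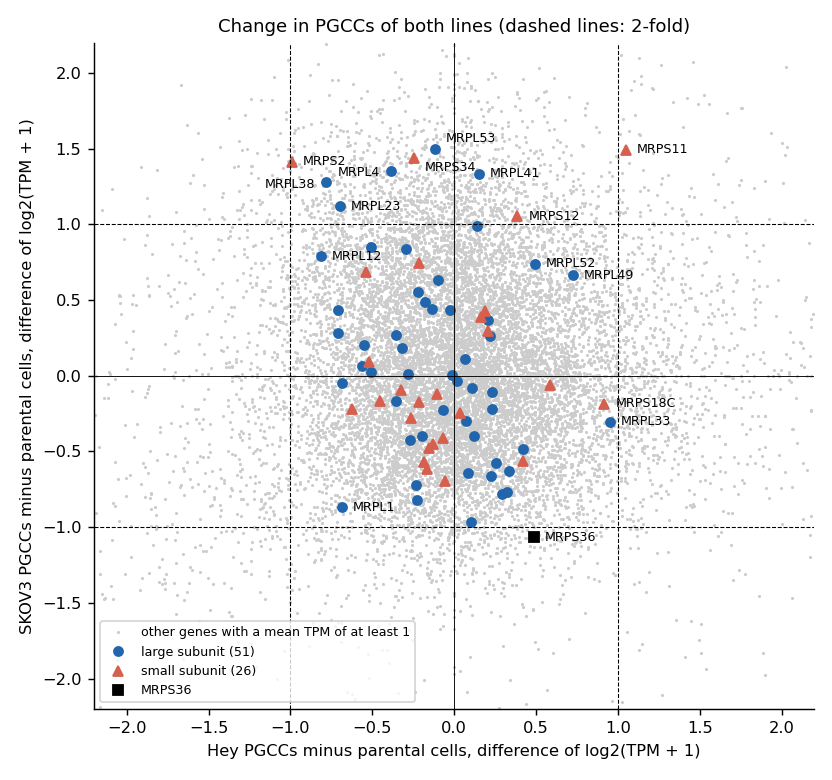
Difference of log2(TPM + 1) between PGCCs and parental cells in Hey (horizontal axis) and SKOV3 (vertical axis) for the 78 genes by subunit, with all other genes in grey within the plotted range and dashed lines at 2-fold. MRPS11 alone lies beyond 2-fold in both lines, and MRPS2 lies at -0.99 in Hey and 1.41 in SKOV3.

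In SKOV3 PGCCs the change of a gene followed the GC content of its transcript. GC content was taken from the canonical transcript of GENCODE release 44 and ran from 34.8% (MRPS36) to 66.7% (MRPL41), with a median of 48.2% for the 78 genes and 47.6% for the 13468 genes that have a value. Across the 78 genes the Spearman correlation of change and GC content was 0.855 in SKOV3 and -0.358 in Hey. Across all genes it was 0.721 and -0.045. The correlation is given as a description, since genes of a library share its preparation.

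The extremes of GC content show how differently these genes are written although their proteins work in the same organelle. The opening 90 coding bases are printed for the pair of lowest and for a pair of the highest GC content in the set, read from the GENCODE release 44 transcripts of GRCh38 from 5′ to 3′, with G and C in capitals. MRPS36 lies on chr5:69217760-69230158 (plus strand), MRPL50 on chr9:101387633-101398618 (minus strand), MRPL23 on chr11:1947278-1984522 (plus strand) and MRPL41 on chr9:137551879-137552555 (plus strand).
MRPS36: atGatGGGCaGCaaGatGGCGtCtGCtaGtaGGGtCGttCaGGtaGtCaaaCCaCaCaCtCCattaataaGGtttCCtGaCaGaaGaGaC
MRPL50: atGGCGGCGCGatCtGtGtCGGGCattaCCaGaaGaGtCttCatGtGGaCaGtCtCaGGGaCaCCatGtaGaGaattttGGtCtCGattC
MRPL23: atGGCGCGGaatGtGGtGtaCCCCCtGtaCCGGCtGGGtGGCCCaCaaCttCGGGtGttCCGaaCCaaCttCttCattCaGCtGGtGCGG
MRPL41: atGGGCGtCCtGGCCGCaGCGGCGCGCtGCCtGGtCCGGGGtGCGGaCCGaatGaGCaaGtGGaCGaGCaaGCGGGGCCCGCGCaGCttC
Of the bases shown, 47.8% were G or C in MRPS36, 51.1% in MRPL50, 60% in MRPL23 and 73.3% in MRPL41. Over the whole coding sequence these shares were 41.4%, 43.7%, 61.4% and 65.7%. In SKOV3 PGCCs the changes of the same genes were -1.07, -0.58, 1.12 and 1.34, and in Hey PGCCs 0.49, 0.25, -0.70 and 0.15.

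Sorted by GC content, members and other genes moved alike in SKOV3 PGCCs. Under 42% GC, 0 of 18 genes of the set had a change above 0, and their median was -0.60, against -0.47 for all genes in that range. Between 42% and 50% GC 4 of 23 were above 0, and between 50% and 57% 20 of 23 were. At 57% GC or more all 14 were above 0, with a median of 1.02 against 0.82 for all genes there. In Hey the medians of the set in the lowest and highest range were 0.11 and -0.45, against 0 and -0.05 for all genes there. In SKOV3 daughter cells against parental cells the correlation across the set was 0.239, and in Hey daughter cells it was -0.283.

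**Figure D3:**
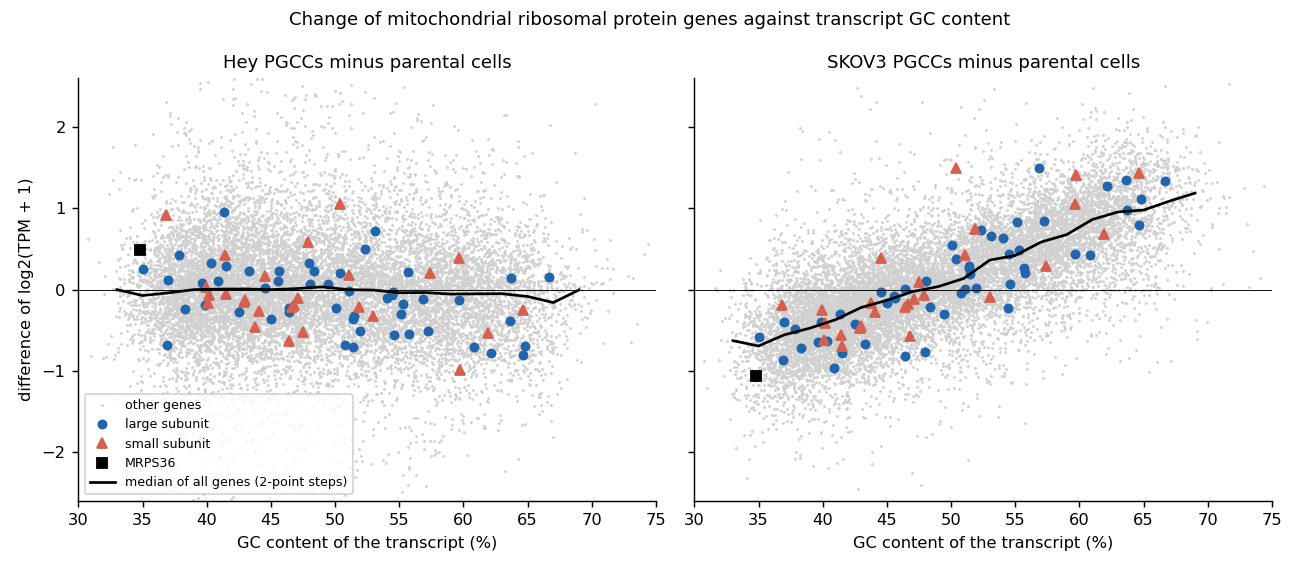
Difference of log2(TPM + 1) between PGCCs and parental cells against the GC content of the transcript in Hey (left) and SKOV3 (right), with the 78 genes coloured by subunit, other genes in grey and the median of all genes as a line. In SKOV3 the 78 genes follow the line from below 0 at low GC content to about 1 at high GC content (Spearman 0.855), and in Hey the line stays near 0.

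A trend with GC content and transcript length was therefore fitted to the change of all genes and subtracted. The fitted curve includes the level of all genes, so their median was near 0 afterwards in every comparison. In SKOV3 PGCCs, 1 of the 78 genes was then called upregulated (MRPS11, 1.37) and 0 were called downregulated, against 2.24% and 2.59% of the 13468 genes with a known GC content. Of the other 8 upregulated genes, MRPL53 (0.92) and MRPS2 (0.71) stayed nearest to 2-fold, while MRPL41 (0.22) and MRPL23 (0.10) were close to 0. MRPS36, the downregulated gene, came to -0.30. The standard deviation across the set fell from 0.66 to 0.36, and the correlation with GC content from 0.855 to 0.193. The median change became 0.03. In Hey the same step left MRPS11 as the only called gene (1.08) and a median of -0.17. Of 13468 genes 837 were then called higher and 669 lower in Hey PGCCs. The correlation with GC content across the set in Hey was -0.358 before and -0.343 after this step. What set the trend in the SKOV3 PGCC library was not tested.

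**Figure D4:**
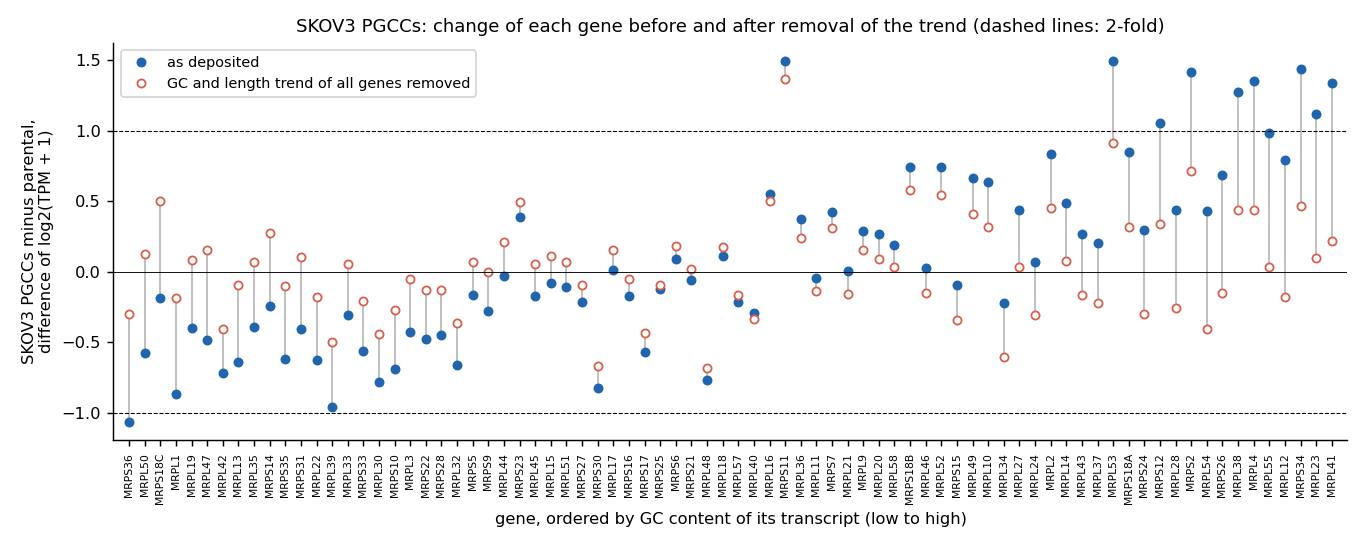
Difference of log2(TPM + 1) between SKOV3 PGCCs and parental cells for each gene, ordered by GC content of its transcript, as deposited (filled) and with the GC and length trend of all genes removed (open). Of 9 genes above the upper dashed line at 2-fold, MRPS11 alone stays above it (1.37) when the trend is removed.

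Large and small subunit genes had similar medians in PGCCs, and the difference between them was not tested. In Hey their median changes were -0.10 for the 51 large subunit genes and -0.14 for the 26 small subunit genes. In SKOV3 the medians were 0.02 and -0.14 as deposited, and 0.05 and 0.01 with the trend removed. The median GC content of the large subunit genes was 50.8% and that of the small subunit genes 46.7%. For genes of proteins shared with bacterial ribosomes and of proteins that only mitochondria have, the large subunit medians were -0.12 and 0.02 in Hey, and 0.04 and 0.02 in SKOV3.

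The MRPS18 genes encode 3 related proteins, of which MRPS18A sits in the large subunit and MRPS18B and MRPS18C in the small subunit. In Hey PGCCs MRPS18C was nearest to a 2-fold increase (0.92), while MRPS18A was at -0.51 and MRPS18B at -0.21. In SKOV3 PGCCs the order was turned around, with MRPS18A at 0.85, MRPS18B at 0.74 and MRPS18C at -0.19. Their transcripts have GC contents of 57.3%, 51.9% and 36.8%, and with the trend removed the SKOV3 changes were 0.32, 0.58 and 0.50.

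Mitoribosomal proteins with other symbols were followed as well. DAP3, PTCD3 and CHCHD1 belong to the small subunit, AURKAIP1 is assigned to it as well, and GADD45GIP1 belongs to the large subunit. None of the 5 genes was called in PGCCs of either line. DAP3 was the most abundant, at 198 and 193 TPM in parental cells and PGCCs of Hey and at 158 and 149 TPM in SKOV3. The changes ran from -0.62 (PTCD3) to 0.50 (CHCHD1) in Hey and from -0.35 (CHCHD1) to 0.85 (GADD45GIP1) in SKOV3.

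Daughter cells of the lines differed from their parental cells in opposite directions. In Hey daughter cells the median change of the set was 0.16, against 0.05 for all genes. Of the 78 genes 54 (69.2%) were above 0, against 53.9% of all genes. Upregulation was called for 1 gene, where 6.31% of all genes were called, and downregulation for 0, where 3.73% were. At 1.5-fold the counts were 12 and 2, against 17.2% and 10.7% of all genes. In SKOV3 daughter cells the median was -0.32, against 0.15 for all genes. There 16 of 78 genes (20.5%) were above 0, against 58.8% of all genes.

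Downregulation in SKOV3 daughter cells was called for 6 genes and upregulation for 1, against 6.34% and 15.1% of all genes. At 1.5-fold 23 genes were lower and 2 were higher, where 13.6% and 28.1% of all genes were. The set thus had more decreases and fewer increases than all genes at this threshold. Once the GC and length trend was taken out, the median was -0.39, against -0.01 for all genes. Then 5 genes were called lower and 1 higher, against 1015 and 1494 of 13468 genes. The count of 6 depended on the scaling. Without the genes of the mitochondrial genome 2 genes were called lower (MRPL48 then at -0.91 and MRPS18C at -0.92), and after quantile normalization 10 were. Shares of all genes called under these settings were not counted. The difference between the lines was not tested, and these comparisons share their parental libraries with those of PGCCs.

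MRPL48, a mitochondria-specific protein of the large subunit on chr11:73787872-73865133, was called in both daughter populations in opposite directions. Its level was 22.2 TPM in parental cells, 28 TPM in PGCCs and 61.5 TPM in daughter cells for Hey, where the daughter cells differed by 1.43. In SKOV3 it was 55.6, 32.3 and 27.3 TPM, a change of -1.0, just at the threshold. In Hey daughter cells MRPS12 (0.96) and MRPL39 (0.95) came next, and MRPL14 (-0.79), MRPS34 (-0.72) and MRPL55 (-0.54) were lowest.

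The other 5 genes called lower in SKOV3 daughter cells were led by MRPL51. MRPL51, the second most abundant gene of the set, was at 220 TPM in parental cells, 204 TPM in PGCCs and 90.1 TPM in daughter cells (-1.28), while in Hey it was at 235, 277 and 333 TPM. MRPL19 (-1.17), MRPL54 (-1.08), MRPL57 (-1.03) and MRPS18C (-1.01) completed the list, of which MRPL19 and MRPS18C have bacterial counterparts. MRPS11 was called higher (1.70), followed by MRPL52 (0.61) and MRPS18B (0.51), which stayed under 2-fold.

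Set against daughter cells of the same line, 54 of the 78 genes were lower in PGCCs of Hey and 53 were higher in PGCCs of SKOV3. Of all 14988 genes, 7785 were lower in PGCCs of Hey and 6352 were higher in PGCCs of SKOV3. In Hey the median difference was -0.26 (-0.03 for all genes), and 6 genes were called lower and 2 higher in PGCCs, against 9.95% and 8.13% of all genes. The genes called lower were MRPL11 (-1.37), MRPS2 (-1.31), MRPL48 (-1.11), MRPS6 (-1.08), MRPL54 (-1.05) and MRPL1 (-1.03). MRPS11 (1.48) and MRPL33 (1.00) were called higher.

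In SKOV3 the median difference between PGCCs and daughter cells was 0.32, against -0.12 for all genes. Of the 78 genes 15 were called higher and 0 lower, where 9.25% and 14.6% of all genes were called. The largest differences were those of MRPS34 (16.6 against 2.84 TPM, 2.2), MRPL41 (1.64), MRPS12 (1.64), MRPL23 (1.62), MRPL54 (1.51), MRPL38 (1.42), MRPL4 (1.31), MRPL12 (1.27), MRPL53 (1.27) and MRPS26 (1.26). MRPS33 (-0.94), MRPL32 (-0.77) and MRPL1 (-0.69) were lowest. Across the 78 genes these differences and GC content had a Spearman correlation of 0.678. With the trend removed 6 genes were called higher and 0 lower, against 7.25% and 10.6% of all genes. These were MRPS34 (1.47), MRPL19 (1.39), MRPS18C (1.34), MRPL51 (1.25), MRPS23 (1.18) and MRPS12 (1.10). The median of the set was then 0.45, while that of all genes moved from -0.12 to 0.005.

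The untreated lines differed in 12 genes of the set. In SKOV3 parental cells the median was 0.19 above that of Hey parental cells, against 0.29 for all genes. It was -0.20 with the trend removed and -0.10 under median ratio scaling, so its sign depends on the scaling. The medians of all genes were then -0.02 and 0.04. At 2-fold 10 genes were called higher and 2 lower in SKOV3, against 24.2% and 11.5% of all genes. These counts depended on the processing as well. They were 2 higher and 6 lower when the trend was removed, against 2191 and 2126 of 13468 genes. Median ratio scaling gave 4 and 5, and quantile normalization 5 and 4. Shares of all genes called under these scalings were not counted. MRPS6 (48.8 TPM in Hey and 173 TPM in SKOV3, 1.80) and MRPS15 (77.1 and 262 TPM, 1.75), bacterial-type proteins of the small subunit, led the list. The other genes called higher were MRPL33 (1.31), MRPL48 (1.29), MRPL39 (1.26), MRPS18C (1.2), MRPS7 (1.19), MRPS26 (1.16), MRPS36 (1.09) and MRPL55 (1.06). MRPS2 (51.5 and 16.0 TPM, -1.63) and MRPL41 (-1.05) were called lower.

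Over all 3 states the groups of libraries from the lines did not overlap for 19 of the 78 genes. The SKOV3 libraries were all above the Hey libraries for 8 genes, where 31.8% of all genes had this pattern. They were all below them for 11 genes, where 12.8% of all genes did. The 8 genes were MRPS15, MRPS6, MRPL55, MRPS26, MRPS7, MRPL20, MRPS27 and MRPL24. Among the 11, the largest mean differences were those of MRPS22 (-0.95), MRPL51 (-0.80) and MRPS31 (-0.79).

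As a second approach the lines stood in for replicates in limma's moderated test on log2(TPM + 1) of all 14988 genes. Cell line was a covariate, and 2 residual degrees of freedom were left. The TPM were as deposited, so the GC trend of the SKOV3 PGCC library was part of the fit. No fit was made with the trend removed. By limma with Benjamini-Hochberg adjustment, 0 of the 78 genes had an adjusted p under 0.05 in PGCCs against parental cells, and 0 had an unadjusted p under 0.05. Of all 14988 genes limma called 1 higher and 2 lower there, and 2.73% had an unadjusted p under 0.05. Daughter cells against parental cells gave 0 and 0 genes of the set. There limma called 0 of all genes higher and 2 lower, and 3.39% had an unadjusted p under 0.05. For PGCCs against daughter cells limma gave 0 genes at the adjusted threshold and 1 gene, MRPS34, at an unadjusted p under 0.05. Of all genes limma called 0 in either direction there, and 5.06% had an unadjusted p under 0.05. With so few genes called at all, these counts do not set the members apart. Of all members MRPL1 came nearest for PGCCs against parental cells, at -0.78 with a standard error of 0.37 and a decrease in both lines, and limma's adjusted p was 1. With the trend removed, the changes of MRPL1 were -0.76 in Hey and -0.19 in SKOV3.

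The cell line term of the same fit, read after the other results, gave 4 genes an adjusted p under 0.05, all higher in SKOV3, where limma called 14.4% of all genes higher and 6.27% lower. MRPS15 differed by 1.65 (standard error 0.30, adjusted p = 0.0111 by limma), MRPL55 by 1.43 (standard error 0.34, adjusted p = 0.0252 by limma), MRPS6 by 1.61 (standard error 0.40, adjusted p = 0.0293 by limma) and MRPS26 by 1.40 (standard error 0.41, adjusted p = 0.0495 by limma). Each was higher in all 3 SKOV3 libraries than in any Hey library. MRPL55 and MRPS26 have a GC content above 57%, where the median change of all genes in SKOV3 PGCCs was 0.82. The part of this trend in the cell line term was not tested. Without the Hey parental, the Hey PGCC, the SKOV3 parental or the SKOV3 PGCC library 0 genes passed, and without either daughter library 2 did. Under median ratio scaling limma called 1 gene higher and 2 lower, without an intensity trend 3 higher, and with all genes above 0 tested 0. With 1 library per condition the fit takes the states of a line as its repeats.

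The RNAs that the mitochondrial ribosome contains or translates rose in Hey PGCCs, where the mRNAs of its proteins had a median near 0. MT-RNR1 encodes the ribosomal RNA of the small subunit and MT-RNR2 that of the large subunit, both in the mitochondrial genome. In Hey MT-RNR1 was at 456 TPM in parental cells, 2069 TPM in PGCCs and 746 TPM in daughter cells, and MT-RNR2 at 1601, 9819 and 2880 TPM. Both were called upregulated in Hey PGCCs (2.18 and 2.62). In SKOV3 MT-RNR1 was at 412, 515 and 902 TPM and MT-RNR2 at 2638, 2849 and 5337 TPM, and both were called upregulated in daughter cells (1.13 and 1.02) and not in PGCCs (0.32 and 0.11).

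The 13 protein genes of the mitochondrial genome encode the products of the mitochondrial ribosome. In Hey PGCCs all 13 were called upregulated, with a median change of 2.28, and in Hey daughter cells 12 were, with a median of 1.69. In SKOV3 PGCCs 0 were called (median -0.07), and in SKOV3 daughter cells 4 were called upregulated (median 0.76). The summed TPM of these genes was 4.58 times that of the 78 mitochondrial ribosomal protein genes in Hey parental cells, 21.1 times in Hey PGCCs and 11.5 times in Hey daughter cells. In SKOV3 the ratios were 13.5, 10.7 and 27.7. TPM is a share of a library, so the rise of abundant RNAs lowers all others, and without the genes of the mitochondrial genome the median of the set in Hey PGCCs was 0.03 in place of -0.11, and that of all genes 0.11.

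**Figure D5:**
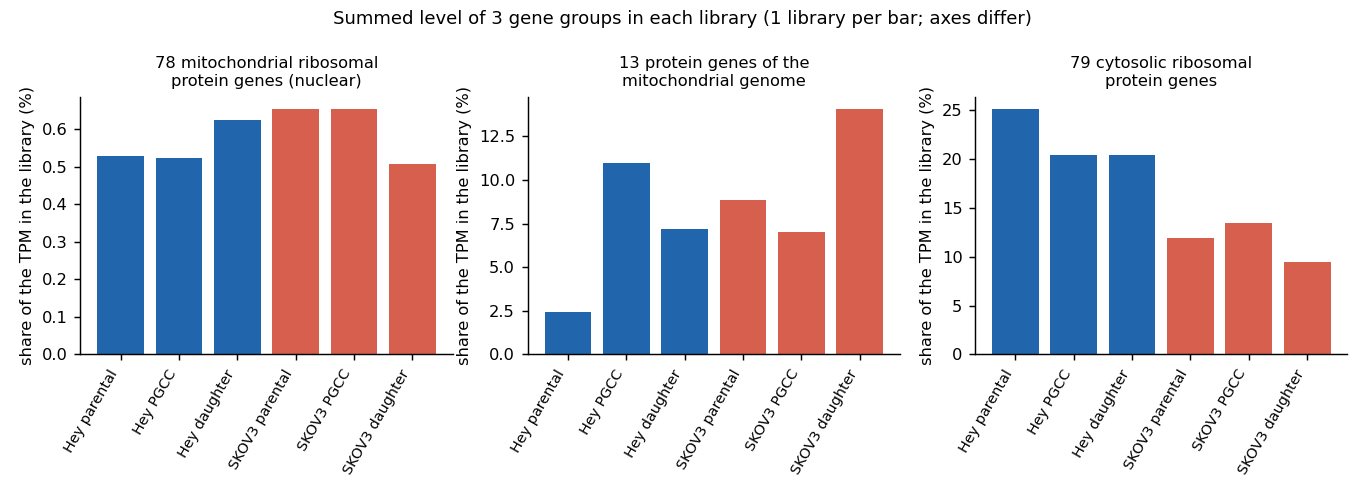
Summed level of the 78 mitochondrial ribosomal protein genes, the 13 protein genes of the mitochondrial genome and the 79 cytosolic ribosomal protein genes in each library, as a share of its TPM in percent, with 1 library per bar and an axis of its own for each group. The share of the first group lies between 0.508% and 0.654%, while that of the second is 2.42% in Hey parental cells and 11.0% in Hey PGCCs.

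Cytosolic ribosomal protein genes took 25.1%, 20.4% and 20.5% of the TPM in Hey and 11.9%, 13.5% and 9.45% in SKOV3. Their median change in PGCCs was -0.29 in Hey and 0.20 in SKOV3 over 79 genes. In daughter cells it was -0.26 and -0.22. The medians of the mitochondrial set lay nearer to 0 in PGCCs of both lines.

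Genes that serve the mitochondrial ribosome were grouped as 15 translation factors, 21 genes of ribosome assembly and rRNA modification, 20 aminoacyl-tRNA synthetases and tRNA amidation genes, and 6 genes of mitochondrial transcription. In Hey PGCCs 0 of the 62 were called upregulated and 6 were called downregulated, against 7.67% and 5.22% of all genes. Among these were MTG1 (-1.53), an assembly GTPase, POLRMT (-1.50), the mitochondrial RNA polymerase, WARS2 (-1.33) and SARS2 (-1.26), synthetases for tryptophan and serine, and NOA1 (-1.17), a GTPase. In the same cells the transcripts of the mitochondrial genome were called upregulated. The median over the 62 genes was -0.25, and 46 of them were below 0, against 7123 of all 14988 genes. The largest changes above 0 were those of C12orf65 (0.71), TEFM (0.67) and SLIRP (0.38).

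In SKOV3 PGCCs 5 of the 62 genes were called upregulated and 0 were called downregulated, against 9.94% and 4.96% of all genes. These were NSUN4 (1.45), MTG1 (1.10), TUFM (1.04), the mitochondrial elongation factor Tu, MRM3 (1.04), an rRNA methyltransferase, and POLRMT (1.03). YARS2 (-0.97), MTFMT (-0.84) and GFM1 (-0.83) were the lowest, without being called. With the GC and length trend removed 1 gene was called upregulated (NSUN4, 1.52) and 1 downregulated (YARS2, -1.0), and in Hey the count of 6 was unchanged. As deposited, MTG1 and POLRMT were called in both lines in opposite directions, with GC contents of 59.8% and 66.1%. With the trend removed their SKOV3 changes were 0.33 and -0.05, neither of them called. Their Hey changes were then -1.40 and -1.32. In daughter cells against parental cells, 3 of the 62 were called upregulated in Hey and 4 in SKOV3, and 0 and 2 were called downregulated. Of all genes 6.31% and 15.1% were called upregulated, and 3.73% and 6.34% downregulated.

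PGCCs of Hey had low levels of genes of dividing cells, with MKI67 at -2.51, TOP2A at -2.59 and CCNB1 at -2.05 compared with parental cells. In SKOV3 PGCCs the changes were -0.24, -1.77 and -0.68. Fewer dividing cells and less RNA of these genes per cell cannot be told apart in bulk RNA. The part of cell division in the values of the mitochondrial ribosomal protein genes was not tested.

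Several of these genes start close to a gene that runs the other way. Of the 78 genes 19 (24.4%) had a protein-coding gene on the opposite strand whose start lay within 1000 bases upstream or overlapped by at most 200 bases, against 12.6% of 12172 protein-coding genes. MRPS11 and MRPL46, both of the set, start 63 bases apart on chromosome 15. MRPS11 was called upregulated in PGCCs of both lines, while MRPL46 was at 31.5 and 21.9 TPM in Hey (-0.51) and at 28.9 and 29.4 TPM in SKOV3 (0.02).

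In all, 17 such pairs had both genes in the table. The changes in PGCCs had the same sign in both genes for 8 pairs in Hey and 13 in SKOV3, and for 6 pairs in both lines. The signs are as deposited, where SKOV3 changes followed GC content, and no share for other pairs of genes was counted. The changes of a pair differed by at least 1 for 7 pairs in Hey and 3 in SKOV3. MITD1, next to MRPL30, was at 0.62 in Hey and -0.74 in SKOV3, where MRPL30 was at 0.29 and -0.78. NDUFS6, a complex I gene next to MRPL36, was at 0.63 and 0.60, and MRPL36 at 0.21 and 0.37. Other pairs differed more. SKA3, a kinetochore gene whose start lies 106 bases from that of MRPL57, was called downregulated in PGCCs of Hey (-2.06) and SKOV3 (-1.88), while MRPL57 was at 0.23 and -0.22. MTBP, a replication gene next to MRPL13, was called downregulated in both lines (-1.69 and -1.03), while MRPL13 was at 0.08 and -0.64. EME1, a DNA repair gene that starts 13 bases from MRPL27, was called downregulated in Hey (-1.33), where MRPL27 was at -0.02. FAU, which encodes a cytosolic ribosomal protein fused to a ubiquitin-like part, starts 6 bases from MRPL49 and was at -0.38 in Hey and 1.09 in SKOV3, where MRPL49 was at 0.73 and 0.66.

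The promoters of the set were searched for motifs of factors known to act on nuclear genes of mitochondria. RefSeq promoters (GRCh38.p14, 250 bases before to 50 after the start) were matched for 69 of the 78 genes. The YY1 motif AAGATGGC, on either strand, was in 20 of them (29.0%), against 5.44% of the 10493 promoters of genes that passed the TPM filter and 3.03% of all 27305 promoters. The ETS motif CCGGAAG was in 29 (42%), against 19.5% and 10.7%. The NRF1 motif GCGCATGC was in 6 (8.70%), against 5.53% and 3.27%, and the E-box CACGTG in 6, against 10.0% and 7.43%. The difference from other promoters was not tested, and for NRF1 and the E-box it rests on 6 promoters each. A match is a run of letters and not a binding site.

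The YY1 letters stood mostly just after the start. Of 21 matches 15 lay within the 50 bases after the start and 17 were on the strand of the gene. In 12 matches the ATG inside the motif was the start codon of the canonical transcript, so the motif and the translation start cannot be told apart there. Windows of 28 bases around the match are printed for the 5 most abundant genes with a match, on the gene's strand from 5′ to 3′, with the match in capitals. MRPL51 is shown at chr12:6493224-6493251 (minus strand), MRPL47 at chr3:179604713-179604740 (minus strand), MRPS7 at chr17:75261888-75261915 (plus strand), MRPS24 at chr7:43869481-43869508 (minus strand) and MRPL20 at chr1:1407261-1407288 (minus strand).
MRPL51: ggtaaggcccAAGATGGCtgtcttcgcc
MRPL47: gcaggatgtgGCCATCTTaagtgagggc
MRPS7: gtggccagccAAGATGGCtgcccccgca
MRPS24: cgcttggcccAAGATGGCggcctccgtg
MRPL20: cgacccgggcAAGATGGCagcggcgctg
In MRPL47 the match is on the opposite strand and lies before the start, while in the other 4 it lies between 16 and 22 bases after it.

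Upstream sequence is also printed for MRPL1 and MRPL52, genes whose changes in PGCCs had the same direction in both lines. For MRPL1, lower in both, the 250 bases before the start (chr4:77862580-77862829, plus strand) held none of the 4 motifs. For MRPL52, higher in both, the printed bases (chr14:22829637-22829740, plus strand) are the longest upstream run free of any annotated exon, and the NRF1 match, on the opposite strand, is in capitals.
MRPL1: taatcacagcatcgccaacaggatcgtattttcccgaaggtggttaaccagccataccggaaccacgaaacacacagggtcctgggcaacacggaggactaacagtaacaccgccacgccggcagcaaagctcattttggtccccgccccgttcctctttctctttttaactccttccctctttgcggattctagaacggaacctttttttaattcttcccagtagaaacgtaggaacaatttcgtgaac
MRPL52: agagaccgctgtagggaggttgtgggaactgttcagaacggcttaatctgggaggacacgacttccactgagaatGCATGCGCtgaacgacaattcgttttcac
The whole MRPL52 promoter also held ETS and YY1 matches. For MRPS11 and MRPL49 all 250 upstream bases lie within annotated exons and are not shown.

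Pseudogenes of the set, which can share reads with their parent genes, were low. Of the 76 rows 63 were at 0 in all libraries and 2 reached 10 TPM, MRPS31P4 (at most 14.1 TPM) and MRPL45P2 (at most 13.7 TPM). In Hey daughter cells MRPS31P4 was at 14.1 TPM beside 59.5 TPM for MRPS31, so values of MRPS31, MRPL45 and, where MRPL48P1 reached 2.93 TPM, MRPL48 are uncertain by the reads that such copies could take.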

How the data were processed

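RNA-seq was done on 6 libraries, 1 for each state (parental, PGCC, daughter) of the Hey and SKOV3 lines. The authors trimmed reads with fastp and quantified them with Salmon 0.14.1 per the submitters' processing notes, and the deposited table holds TPM per gene symbol. The annotation release and the step from transcripts to symbols are not given in the sources used here. The table held 0 columns of other samples.

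Groups came from the labels. Changes are differences of log2(TPM + 1), counted as calls at 2-fold, over genes with a mean TPM of 1 or more. GC content and length came from GENCODE release 44. Their trend over all genes was fitted by lowess (fraction 0.3, 2 passes) and subtracted, the level of all genes included. limma 3.58.1 (R 4.3.3) used all 6 libraries with cell line as covariate, eBayes with intensity trend and Benjamini-Hochberg adjustment. Steps were tested on simulated data. Other work used Python 3.11.15, pandas 2.3.3, scipy 1.17.1, statsmodels 0.14.6 and matplotlib 3.10.9.

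The members and gene lists (subunits, genes with other symbols, translation, mitochondrial genome, cytosolic ribosome, cell type markers) were chosen with earlier results of these data known. Genes were named by a rule: members called at 2-fold (at most 10 each way), the 3 largest and 3 smallest changes per comparison, the 3 highest and 3 lowest levels, the 5 differing most between lines, the MRPS18 genes, mitoribosome genes with other symbols, the mitochondrial rRNAs, and of the translation lists those called in both lines and the 3 largest changes each way. Head-to-head neighbours, the other translation genes and the genes that separate the lines were named after their values were seen. Alternatives were a pseudocount of 0.1, median ratio scaling, quantile normalization, leaving out the mitochondrial genome, the trend removed, a mean TPM of at least 5, thresholds of 1.5-fold and 3-fold, and, for limma, no intensity trend, all genes above 0 and each library left out. The cell line term, the overlap of the lines the 1.5-fold shares of all genes and the tally of neighbouring pairs were added after seeing the data. The values of 1 gene of the translation lists are not reported here.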

Additional observations from a re-analysis of the deposited data

Results flagged for a closer look

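Changes of some genes lay on opposite sides of 0 in the lines by at least 1.5-fold each, and with 1 library per condition the difference was not tested. For PGCCs against parental cells these were MRPL12 (-0.81 in Hey and 0.79 in SKOV3), MRPL23 (-0.70 and 1.12), MRPL38 (-0.78 and 1.28) and MRPS2 (-0.99 and 1.41). They were 4 of 78 genes, against 1024 of all 14988 genes. With the trend removed in both lines it was 1 of 78, against 383 of 13468. In SKOV3 the values after subtraction of the GC and length trend were 0.71 for MRPS2, 0.44 for MRPL38, 0.10 for MRPL23 and -0.18 for MRPL12.

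For daughter cells against parental cells the median of the set was 0.16 in Hey and -0.32 in SKOV3. Genes on opposite sides were MRPL13 (0.67 in Hey and -0.63 in SKOV3), MRPL18 (0.70 and -0.81), MRPL39 (0.95 and -0.76), MRPL48 (1.43 and -1.0), MRPL57 (0.60 and -1.03), MRPS12 (0.96 and -0.59) and MRPS31 (0.75 and -0.87). They were 7 of 78 genes, against 938 of all 14988 genes. With the trend removed in both lines it was 4 of 78, against 821 of 13468. For PGCCs against daughter cells Hey had a median of -0.26 and SKOV3 of 0.32. These comparisons share the daughter libraries, each labelled clone 1, and the differences between the lines were not tested.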

How the results depend on the processing

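With 1 library per condition, no change has a replicate error, and the table gives no read counts. Each state had 1 library per line, so the only pairing of libraries was by cell line. In limma cell line was the block, and without it limma called 0 genes of the set in the state contrasts, also at an unadjusted p under 0.05. Values are given in the order of the comparisons, with the cause not tested except where the threshold itself sets the count. Shares of all genes called at 2-fold were counted only as deposited and with the trend removed.

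Removing the GC and length trend turned the median in SKOV3 PGCCs against parental cells to 0.033 and left 1 gene higher and 0 lower. It left 1 gene higher in Hey PGCCs against daughter cells, against 1134 of 13468 genes. In SKOV3 PGCCs against daughter cells it gave a median of 0.45 and 6 genes higher. The median between the parental lines turned to -0.20, with 2 genes higher and 6 lower. The step also takes out the level of all genes. Their median went from -0.12 to 0.005 in SKOV3 PGCCs against daughter cells and from 0.29 to -0.02 between the parental lines. The large minus small subunit difference turned to -0.031 in Hey daughter cells and to -0.020 in SKOV3 PGCCs against daughter cells.

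Median ratio scaling gave 2 genes lower in SKOV3 PGCCs, a median of -0.49 in SKOV3 daughter cells, -0.15 with 3 genes lower in Hey PGCCs against daughter cells, and 0.44 in SKOV3 PGCCs against daughter cells. Between the parental lines the median turned to -0.10, with 4 genes higher and 5 lower, while the median of all genes moved from 0.29 to 0.04. Quantile normalization gave medians of -0.0024 in Hey PGCCs, -0.48 with 10 genes lower in SKOV3 daughter cells, -0.12 with 2 genes lower in Hey PGCCs against daughter cells and 0.43 in SKOV3 PGCCs against daughter cells. Between the parental lines it turned the median to -0.022, with 5 genes higher and 4 lower and a large minus small difference of 0.047.

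Without the mitochondrial genome the median in Hey PGCCs turned to 0.034 and 3 genes were higher. In Hey daughter cells 3 genes were then higher, in SKOV3 daughter cells 2 were lower, and in SKOV3 PGCCs against daughter cells the median was 0.20 with 1 gene lower. Between the parental lines 1 gene was lower. A pseudocount of 0.1 gave 1 gene lower in Hey PGCCs and 2 higher in Hey daughter cells. A mean TPM of at least 5, which leaves out MRPS11, gave 0 genes higher in Hey PGCCs and in SKOV3 daughter cells and 1 higher in Hey PGCCs against daughter cells.

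At 1.5-fold the genes higher and lower were 5 and 9 in Hey PGCCs, 18 and 12 in SKOV3 PGCCs, 12 and 2 in Hey daughter cells, 2 and 23 in SKOV3 daughter cells, 4 and 24 in Hey PGCCs against daughter cells, 30 and 4 in SKOV3 PGCCs against daughter cells, and 17 and 6 between the parental lines. Of all 14988 genes, 2580 were higher and 3299 lower at 1.5-fold in Hey PGCCs against daughter cells. In SKOV3 PGCCs against daughter cells these counts were 2803 and 4192, and between the parental lines 5708 and 2775. At 3-fold 0 genes were called in either direction in the comparisons of Hey, and in SKOV3 PGCCs against parental cells. In SKOV3 daughter cells 0 were lower, and in SKOV3 PGCCs against daughter cells 4 were higher. Between the parental lines 2 were higher and 1 lower. Shares of all genes at 3-fold were not counted. For the cell line term, limma called 4 genes at an adjusted p under 0.05, 0 when all genes above 0 were tested, 1 higher and 2 lower under median ratio scaling, 3 without an intensity trend, 4 with a pseudocount of 0.1, and between 0 and 2 with a library left out. In the state contrasts limma called 0 genes of the set.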
